A study of Mus musculus with 8 samples.

Results

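MicroRNAs (miRNAs) were counted in the total RNA of mouse spleen B cells in 2 states, resting and proliferating, to ask which miRNAs differ in level between them. The comparison uses the 4 input libraries of a series of 8, with 2 libraries per state. The other 4 libraries hold the RNA that came down with the Argonaute protein AGO2, and they serve here to share the estimate of spread and for 1 comparison at the end. All animals were Ago2HA/HA, meaning that both copies of the gene encode AGO2 with an HA epitope, so the tag is common to both states. B cells were obtained untouched from spleen, by depleting cells that bear CD43, and were sequenced either resting or after activation in culture. The sources used here do not give the activating agent, its duration or the age of the animals. Whether both libraries of a state derive from different mice is not stated, and the p-values therefore reflect only library-to-library spread, which may be technical. The 2 states were deposited as separate tables, and state and table cannot be told apart.

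The members compared were miRNA genes, joined between both tables by gene identifier. Of 2202 features in the tables, 426 had a count in at least 1 of the 4 inputs and 219 passed the filter on low counts and were tested. A feature covers a whole hairpin, so its count joins both arms. The tables hold miRNA genes only, so B cell identity could not be checked on messenger RNA. Mir142, which is expressed throughout blood cells, had no count in any input, and a feature on the opposite strand, Mir142b, overlaps it. Mir150, which is abundant in mature resting lymphocytes, took the largest share of both resting libraries.

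A miRNA is cut from a hairpin transcript and loaded as a single strand into an Argonaute protein. Bases 2 to 8 of that strand, the seed, pair with messenger RNAs and largely set which ones are repressed, so miRNAs with a shared seed are grouped as a family. Many miRNA genes lie next to each other and are transcribed together as a cluster. In lymphocytes, miR-150 is a well known miRNA of resting cells that restrains c-Myb. The gene of miR-155 is induced on activation, and miR-155 is needed for germinal centre responses. The miR-17 cluster is induced by c-Myc and favours survival and division.

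The mature sequences of the miRNAs that carry the comparison are given 5′ to 3′ with the seed in capitals, as RefSeq lists them on GRCm38.p6, the assembly of mm10. The arm shown is the one usually taken as the guide strand, and the counts do not separate the arms. The first set rose in resting cells. The first pair shares a seed, and the next 2 are single.
miR-29a-3p: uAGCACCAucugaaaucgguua
miR-29c-3p: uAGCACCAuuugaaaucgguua
miR-140-3p: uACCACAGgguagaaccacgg
miR-101a-3p: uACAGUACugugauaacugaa
Members of the miR-15/16 family share another seed, and 3 of the 4 shown rose.
miR-16-5p: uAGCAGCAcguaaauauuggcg
miR-15a-5p: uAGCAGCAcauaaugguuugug
miR-322-5p: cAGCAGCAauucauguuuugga
miR-15b-5p: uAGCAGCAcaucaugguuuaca
The next set was lower in resting cells. The first 2 have seeds of their own, and the members of the miR-183 cluster that follow have seeds that resemble each other.
miR-155-5p: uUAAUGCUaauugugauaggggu
miR-34a-5p: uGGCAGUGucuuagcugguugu
miR-183-5p: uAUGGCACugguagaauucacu
miR-96-5p: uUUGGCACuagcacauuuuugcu
miR-182-5p: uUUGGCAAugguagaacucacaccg
From the miR-17 cluster and its paralogs, the 5 members of the miR-17 seed group shown, of 6 tested, and the miR-18 pair were lower in resting cells.
miR-17-5p: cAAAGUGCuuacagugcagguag
miR-20a-5p: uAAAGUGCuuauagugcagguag
miR-20b-5p: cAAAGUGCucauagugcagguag
miR-106a-5p: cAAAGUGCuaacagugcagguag
miR-93-5p: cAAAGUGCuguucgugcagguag
miR-18a-5p: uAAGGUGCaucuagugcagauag
miR-18b-5p: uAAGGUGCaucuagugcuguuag
Within the miR-200 family the 2 seed groups gave different counts of calls.
miR-200a-3p: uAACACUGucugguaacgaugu
miR-141-3p: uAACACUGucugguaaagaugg
miR-200b-3p: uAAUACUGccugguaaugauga
miR-200c-3p: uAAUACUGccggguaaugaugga
miR-429-3p: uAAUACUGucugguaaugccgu
In the let-7 family, which shares 1 seed, members of 1 cluster gave different calls.
let-7f-5p: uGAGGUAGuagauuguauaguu
miR-98-5p: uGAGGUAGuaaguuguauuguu
let-7i-5p: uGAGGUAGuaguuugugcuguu

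The resting inputs held 358764 and 386598 counts and the proliferating inputs 276287 and 213418. Levels are given as CPM, the count scaled to library size with trimmed-mean (TMM) factors, which were 0.996 and 1.05 in the resting and 1.28 and 1.34 in the proliferating inputs. A count of 3, used as the floor, corresponds to 7.37 to 10.5 CPM. Libraries of 1 state correlated at 0.956 (resting) and 0.944 (proliferating) over log2 CPM of features and differed by more than sampling noise. Fold changes are log2 values of resting minus proliferating input from edgeR's quasi-likelihood test, with Benjamini-Hochberg adjustment over the 219 features and a threshold of 0.05. With 2 libraries against 2, an exact permutation test of a single value cannot go below p = 0.333, so the tests rest on the spread pooled across features. In these bulk samples a change in the cells that hold a miRNA and a change in its amount per cell cannot be told apart.

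The miRNA content of the inputs differed widely between the states. Of the 219 features, 108 differed (49.3%), 51 of them higher in resting cells (23.3%) and 57 lower (26%). The 51 features higher in resting cells made up 65.7% and 65.9% of the counts of the resting libraries and 20.4% and 22.5% of the proliferating libraries. The 57 lower features made up 16.5% and 16.6% of the resting and 51.3% and 49.8% of the proliferating libraries. Most of the library thus lay in features that differed, and the 111 that did not pass held 17.5% to 28.1% of counts. Changes among the features that passed were large. A log2 change of 1 was passed by 43 of the higher and 51 of the lower features, with median sizes of 1.99 and 2.27. These medians cover called features only, 15 of them with 3 or fewer counts in 1 state. Called or not, the median absolute log2 change was 0.80 at a mean of 10000 CPM or more and 1.74 under 100 CPM. The median log2 change over all tested features was -0.04. The direction split depends on scaling. With library totals the median of all features moved by -0.35 to give 37 higher and 75 lower features. Upper-quartile factors moved that median by 0.36 and gave 59 higher against 39 lower features. No feature that differed changed sign under any of 13 alternatives, and 54 of the 108 passed in every one in which they were tested. Without resting replicate 2 the lower count was 34, and without proliferating replicate 2 the higher count was 32.

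Features with more counts passed more often. Of the 16 with a mean of at least 10000 CPM over the 4 inputs, 13 differed, 8 higher and 5 lower. Among the 101 features under 100 CPM, 14 were higher, 20 lower and 67 did not pass, with a median standard error (SE) of 1.07 against 0.24 in the top class. The top 10 features held between 74.5% and 76.1% of counts in all 4 libraries. It took 20 features to reach 90% in each resting library and 24 and 25 in the proliferating libraries. A single gene, Mir150, accounted for 30.7% and 30.2% of the resting libraries, whereas the leading gene of the proliferating libraries, Mir155, held 15.3% and 14.8%.

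**Figure D1:**
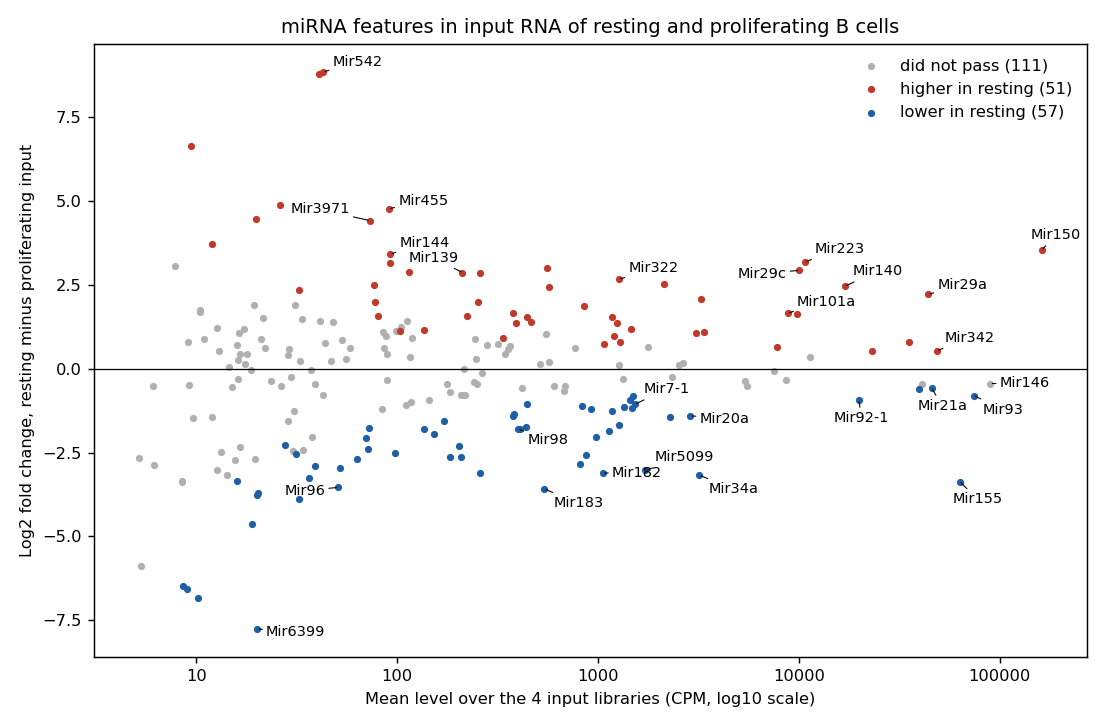
Each point is 1 of the 219 tested miRNA features, with the mean CPM over the 4 input libraries on a log10 axis and the log2 fold change, resting minus proliferating input, on the vertical axis. Red marks the 51 features higher and blue the 57 lower in resting cells, grey the 111 that did not pass. Points at the far top and bottom left have few or no counts in 1 state.

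Mir150 (chr7:45121757-45121821 of mm10, + strand) was the most abundant resting miRNA. It stood at 308424 and 286848 CPM in the resting inputs and at 22419 and 28773 CPM in the proliferating inputs. The 2 states were far apart, with more than the spread within either. The log2 fold change was 3.54 (SE 0.25, adjusted p = 4.9e-15), or 11.6-fold. Its RefSeq mature guide strand is not shown above because the sequence table used here lists only the other arm.

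Mir155 (chr16:84714140-84714204, + strand, within the span of its host transcript Mir155hg) showed the opposite pattern at nearly the same size. Its levels were 12147 and 10217 CPM in the resting inputs and 119612 and 110905 CPM in the proliferating inputs. Neither state overlapped the other. The log2 fold change was -3.37 (SE 0.24, adjusted p = 4.9e-15), or 10.3-fold higher in proliferating cells. The ratio of Mir150 to Mir155 counts within a library, which needs no scaling between libraries, was 25.4 and 28.1 in the resting inputs and 0.187 and 0.259 in the proliferating inputs.

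The miR-29 family was the next large resting group. It restrains genes for extracellular matrix and for DNA methyltransferases, among others. Mir29a (chr6:31062660-31062747, - strand) was at 79803 and 65168 CPM in resting and 15462 and 15719 CPM in proliferating inputs, with a log2 fold change of 2.22 (SE 0.28, adjusted p = 1.7e-08). Mir29c (chr1:195037547-195037634, + strand) was at 19570.2 and 15909 CPM in resting and 2396 and 2255 CPM in proliferating inputs, a log2 fold change of 2.93 (SE 0.30, adjusted p = 1.4e-10). Both were far apart between the states in every library. The partner of each in its cluster carries miR-29b, at low counts that the 2 copies may share. Mir29b-1, beside Mir29a, had a log2 fold change of -0.24 (SE 0.87) and Mir29b-2, beside Mir29c, of 1.90 (SE 1.03), and neither passed.

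Other abundant miRNAs rose in resting cells as well. Mir140 (chr8:107551244-107551313, + strand, within the span of Wwp2), best known from cartilage, was at 31228 and 26116 CPM against 5088 and 5327 CPM, a log2 fold change of 2.46 (SE 0.26, adjusted p = 3.4e-10). The neighbours Mir30d and Mir30b of the miR-30 family both rose, by 1.64 and 1.18 on the log2 scale. Mir30d stood at 15761 and 13746 CPM in resting and 4879 and 4616 CPM in proliferating inputs. Mir101a and Mir101b, which yield near-identical strands from 2 loci, parted. Mir101a (chr4:101346945-101347027, - strand) rose by 1.66 (SE 0.26, adjusted p = 2e-06), from 4501 and 3974 CPM in proliferating to 13068 and 13728 CPM in resting inputs. Mir101b (chr19:29135279-29135375, + strand) was at 7745 and 7602 CPM in resting and 9663 and 9582 CPM in proliferating inputs, with a log2 fold change of -0.33 (SE 0.25, adjusted p = 0.26). The Mir101a to Mir101b ratio was therefore 1.69 and 1.81 in the resting and 0.466 and 0.415 in the proliferating libraries.

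The list of 14 miRNAs associated with resting lymphocytes had 11 tested members. Of these, 8 were higher, none was lower and 3 did not pass, with a median of 1.39, where 23.3% of all tested features were higher. This list and those below were chosen with earlier results of these data known, and some members are relatives or neighbours. The count is therefore no test of the list. Besides those above, Mir30a (1.39), Mir26a-2 (1.11) and Mir26b (0.54) were called higher. The calls of Mir26b and Mir342, at 0.54 each, were marginal (adjusted p = 0.048 and 0.047). Mir342, which lies within Evl and is expressed in B cells, was at 63410.0 and 51806 CPM in resting and 39157 and 40344 CPM in proliferating inputs. With library totals both fell to 0.18, and both lost the call under the replicate block (adjusted p = 0.064 each). Leaving out any 1 of the 4 libraries ended the call of Mir26b, and leaving out resting replicate 1 or either proliferating library ended that of Mir342 (log2 fold change 0.35 to 0.51). Mir30a lost its call without resting replicate 1 (1.09, adjusted p = 0.078) or proliferating replicate 2 (1.13, adjusted p = 0.088). The call of Mir26a-2 was lost with library totals (0.75, adjusted p = 0.12), with the inputs alone (0.91, adjusted p = 0.14), without a filter on low counts (1.10, adjusted p = 0.091), under the replicate block (1.09, adjusted p = 0.062) and without resting replicate 1 (0.72, adjusted p = 0.34) or either proliferating library.

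Rises among less abundant miRNAs followed no single family. Mir339 (chr5:139369650-139369745, - strand) was at 4358 and 2924 CPM in resting and 522 and 737 CPM in proliferating inputs, a log2 fold change of 2.53 (SE 0.36). Mir322 (chrX:53054255-53054349, - strand), the mouse counterpart of miR-424 and a member of the miR-15/16 seed family, was at 1906 and 2495 CPM against 319 and 375 CPM, a log2 fold change of 2.67 (SE 0.34). Mir3964 rose as well (adjusted p = 7.8e-07), from 121 and 126 CPM to 884 and 1098 CPM. Mir125a, a relative of lin-4 that is known from haematopoietic stem cells, rose by 2.86 (SE 0.49), with 549 and 363 CPM against 42.3 and 84.2 CPM. In all of these the lowest resting library lay above the highest proliferating library. Mir3969 (1.99) lost its call without either proliferating library (adjusted p = 0.071 and 0.12). Gm24148 (2.07), a feature of 147 nt within Ncl, and Mir5121 (1.86), which overlaps Snord33, also rose. The call of Mir5121 was lost without proliferating replicate 2 (1.53, adjusted p = 0.089).

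**Figure D2:**
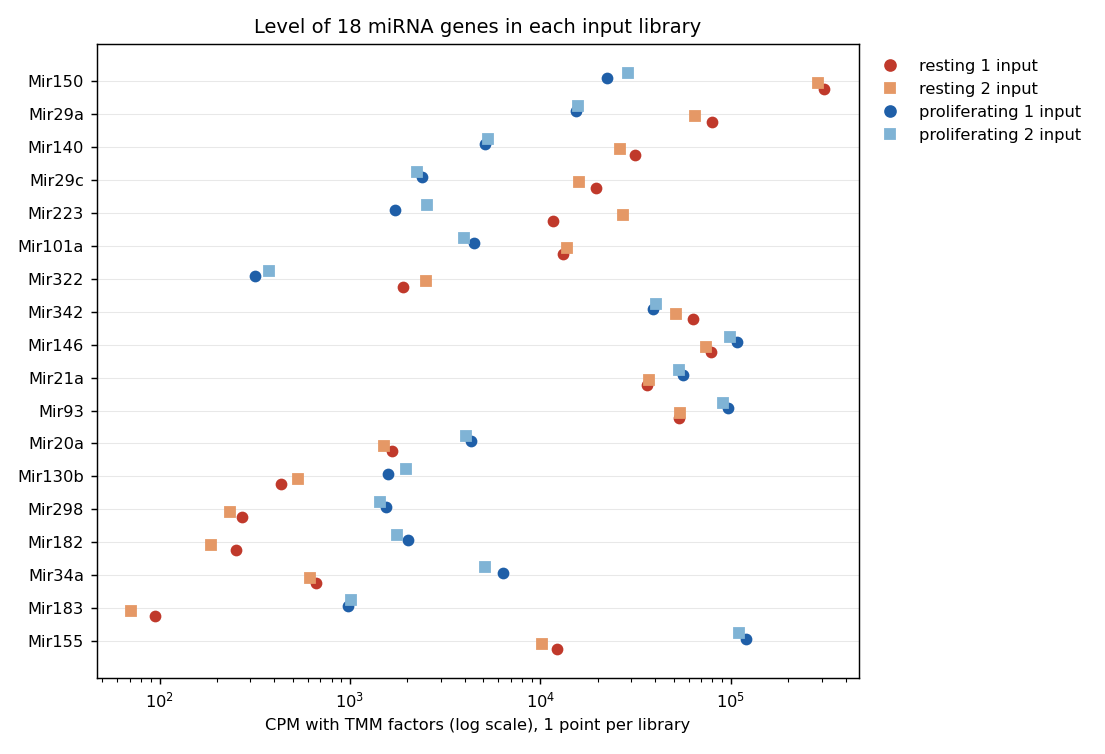
Level of 18 miRNA genes in each of the 4 input libraries, as CPM with TMM factors on a log axis, with 1 point per library. Resting libraries are red and orange, proliferating libraries blue. Mir150 falls from 308424 and 286848 to 22419 and 28773 CPM, Mir155 lies at 12147 and 10217 against 119612 and 110905 CPM, and the points of Mir146 and Mir342 lie closest together.

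Mir34a was also higher in proliferating cells. It is a classical target of p53 that restrains cell cycle genes. Mir34a (chr4:150068454-150068555, + strand) was at 661 and 614 CPM in resting and 6349.7 and 5145 CPM in proliferating inputs, a log2 fold change of -3.17 (SE 0.31, adjusted p = 5.9e-11). The states did not overlap. The list of miR-34 and p53-linked miRNAs had 3 tested members that did not move as one. Mir34a was lower in resting cells, Mir192 was higher (1.37, SE 0.31) and Mir194-2, the neighbour of Mir192, did not pass (1.49, SE 0.82).

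The cluster of Mir183, Mir96 and Mir182 on chromosome 6 (chr6:30165918-30169737, - strand) was lower in resting cells in 3 of 3 members. miR-182 is known as an interleukin 2 induced miRNA that represses Foxo1 in activated T cells. Mir183 was at 95.2 and 71.2 CPM in resting and 979 and 1017 CPM in proliferating inputs (log2 fold change -3.59, SE 0.42, adjusted p = 3.1e-09). Mir182 was at 252 and 187 CPM against 2015 and 1771 CPM (-3.11, SE 0.35, adjusted p = 1.6e-09). Mir96 was near the floor in resting cells, at 11.2 and 4.91 CPM, and reached 93.1 and 94.7 CPM in proliferating cells (-3.54, SE 0.79). Its value was -4.24 without resting replicate 1 and -2.95 without resting replicate 2.

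The list of lymphocyte activation miRNAs had 11 tested members. In resting cells 9 were lower, none was higher and 2 did not pass, with a median of -2.90, where 26% of all tested features were lower. As that list was also chosen with earlier results known, the count is no test of it. Of the 9, Mir146b (-3.26, SE 1.22) lost its call with upper-quartile or RLE factors and without resting replicate 2 or either proliferating library, with values from -8.66 to -2.10. The list holds the miRNAs of the Mir183 cluster and Mir155. Mir132 and Mir212, neighbours with a shared seed that respond to CREB, were both lower, at -2.52 (SE 0.60) and -2.90 (SE 0.98). Mir132 was at 33.6 and 24.6 CPM against 186 and 147 CPM. The call of Mir212 was lost without resting replicate 1 or proliferating replicate 2, and its values ranged from -4.46 to -2.21. Mir222 was lower (-1.73, SE 0.38, 207 and 199 CPM against 621 and 729.5 CPM). Its neighbour Mir221, at -0.66 (adjusted p = 0.076), did not pass. Mir221 was called lower with library totals (-1.02, adjusted p = 0.0058), the inputs alone (-0.85) and a minimum count of 30 (-0.75, adjusted p = 0.024). Mir146, the gene of the NF-kappaB induced miR-146a, did not pass either. It was at 78824 and 73600.3 CPM in resting and 108199 and 98829.9 CPM in proliferating inputs (log2 fold change -0.44, SE 0.22, adjusted p = 0.091), and it passed with library totals (-0.80, adjusted p = 0.0017), with the input libraries fitted alone (-0.63) and with a minimum count of 30 (-0.53, adjusted p = 0.023). Mir21a, induced in many dividing cells, was at 36246 and 37196 CPM against 56379.8 and 53460.5 CPM (-0.58, SE 0.22, adjusted p = 0.028), a call that was lost with upper-quartile factors (-0.21, adjusted p = 0.49), RLE factors (-0.53, adjusted p = 0.062), DESeq2 (-0.53, adjusted p = 0.12), without features over snoRNA, scaRNA or tRNA genes (-0.49, adjusted p = 0.059) and without any 1 of the 4 libraries. The 6 tested members of the NF-kappaB list are all in the activation list as well, and 4 of them were lower and 2 did not pass.

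Several other miRNAs were lower in resting cells. Mir148a (chr6:51269812-51269910, - strand), which restrains pro-apoptotic and tolerance genes in B cells, was at 375 and 398 CPM against 1882 and 1266 CPM (log2 fold change -2.03, SE 0.34). Its family member Mir148b was at -0.92, a call lost with upper-quartile factors (-0.55, adjusted p = 0.14) and without either resting library or proliferating replicate 1. Mir130b was at 437 and 533 CPM against 1583 and 1964 CPM (-1.87, SE 0.33). Its neighbour Mir301b did not pass (-0.78), but was called lower with library totals (-1.13, adjusted p = 0.023) and the inputs alone (-0.97, adjusted p = 0.033). The imprinted neighbours Mir296 and Mir298, within the Gnas region of chromosome 2, were both lower. Mir298 was at 271 and 233 CPM against 1544 and 1445 CPM (-2.57, SE 0.34), and Mir296 at 266 and 135 CPM against 1216 and 1645 CPM (-2.84, SE 0.38), with -3.43 without resting replicate 1. All 3 loci of miR-7 were lower, at -2.64 for Mir7-2, -2.29 for Mir7b and -1.06 for Mir7-1. Reads of the strand common to Mir7-1 and Mir7-2 cannot be assigned to 1 locus with certainty. Mir7b has the same seed but a strand of its own. The call of Mir7-1 was lost with upper-quartile factors and without resting replicate 2 (largest adjusted p = 0.075). The value of Mir7-2 was -2.04 without proliferating replicate 1. Mir5099 was at 383 and 368 CPM against 3251 and 2883 CPM (-3.03, SE 0.39). Mir1983, which overlaps a tRNA gene, was at -1.95 (SE 0.43).

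The miR-17 cluster and its 2 paralogous clusters were lower in resting cells in 11 of 15 tested members. None was higher and the median was -1.26, against 26% lower over all features. This group too was chosen with earlier results known. Mir92-1 and Mir92-2 encode the same miR-92a strand, and Mir19b-1 and Mir19b-2 the same miR-19b strand. Reads of these strands cannot be assigned to either locus with certainty, so the members are not all separate. In the cluster on chromosome 14 (chr14:115043671-115044506, + strand) the changes were uneven. Mir18 was at 64.4 and 51.6 CPM in resting and 389 and 329.7 CPM in proliferating inputs, a log2 fold change of -2.63 (SE 0.45). Its neighbours in the same transcript were lower by less, at -1.40 for Mir20a (SE 0.27), -1.16 for Mir17 (SE 0.29), -0.94 for Mir92-1 (SE 0.23) and -0.81 for Mir19a (SE 0.28). Within each library the ratio of Mir18 to Mir17 counts was 0.0687 and 0.0585 in resting and 0.191 and 0.162 in proliferating cells. The calls of Mir19a and Mir92-1 were lost without resting replicate 2 (-0.59, adjusted p = 0.26, and -0.76, adjusted p = 0.051), and that of Mir19a also without resting replicate 1 or proliferating replicate 1 and with upper-quartile factors (-0.45, adjusted p = 0.15).

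The paralogous cluster on the X chromosome (chrX:52741693-52742567, - strand) was also uneven. Mir18b had its largest change (53.2 and 54.0 CPM against 460.0 and 466 CPM, -3.11, SE 0.45). Mir106a (-1.79), Mir20b (-1.45), Mir92-2 (-1.26) and Mir363 (-1.55) were lower too, and Mir19b-2 (-1.54, SE 0.74) did not pass. The call of Mir363 was lost without resting replicate 1 (-1.32, adjusted p = 0.087) or proliferating replicate 1 (-1.12, adjusted p = 0.087). The third cluster lies within the span of Mcm7, a gene of the replication helicase, on chromosome 5 (chr5:138165321-138165818, - strand). It held most of the counts of the group. Mir93 was at 53717 and 54325 CPM in resting and 96569 and 91342 CPM in proliferating inputs (-0.80, SE 0.21, adjusted p = 0.0017), a call lost with upper-quartile factors (-0.43, adjusted p = 0.12). Mir25, at 37061 and 32039 CPM against 46483 and 47477 CPM (-0.44, adjusted p = 0.098), and Mir106b (-0.44, adjusted p = 0.35) did not pass, although Mir25 passed with library totals (-0.80, adjusted p = 0.0036), with the input libraries alone (-0.63) and with a minimum count of 30 (-0.53, adjusted p = 0.034).

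There were 28 genomic clusters with 2 or more tested features, and they held 72 features. Of these clusters 7 had no call and 13 had 1 call. Of the 8 with 2 or more calls, 3 had only higher and 5 only lower calls. In 7 of the 28 the members had fold changes of both signs, counting those that did not pass, as with Mir29b-1 beside Mir29a. Genes transcribed together still differed in size of change. In the cluster within Huwe1 on the X chromosome, Mirlet7f-2 was at 2763 and 2532 CPM in resting and 2509 and 2357 CPM in proliferating inputs (0.12, SE 0.27, adjusted p = 0.73), while Mir98 was at 171 and 187 CPM against 683 and 561 CPM (-1.80, SE 0.36, adjusted p = 8.4e-05). The ratio of Mir98 to Mirlet7f-2 was 0.0618 and 0.0737 in resting and 0.272 and 0.238 in proliferating libraries. The let-7f strand also arises from a second locus, Mirlet7f-1, which had no count in the inputs. In the cluster of Mir16-1 and Mir15a, within the span of Dleu2, both were higher in resting cells, Mir16-1 by 1.54 (SE 0.31, 1741 and 1751 CPM against 612 and 589 CPM) and Mir15a by 0.78 (SE 0.33, adjusted p = 0.047), and the call of Mir15a was lost without any 1 of the 4 libraries, with library totals (0.43, adjusted p = 0.27), RLE factors, DESeq2, a minimum count of 30 and no filter on low counts. The miR-16 strand is also encoded by Mir16-2. In the paralogous cluster within Smc4, Mir15b (0.36) and Mir16-2 (0.60) did not pass. Mir322 lies in a cluster of 5 tested features with 3 higher calls, among them Mir503 (1.58, SE 0.64), whose call was lost with library totals (1.24, adjusted p = 0.093), with the inputs alone, with no filter on low counts, under the replicate block (1.57, adjusted p = 0.05) and without any 1 of the 4 libraries.

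**Figure D3:**
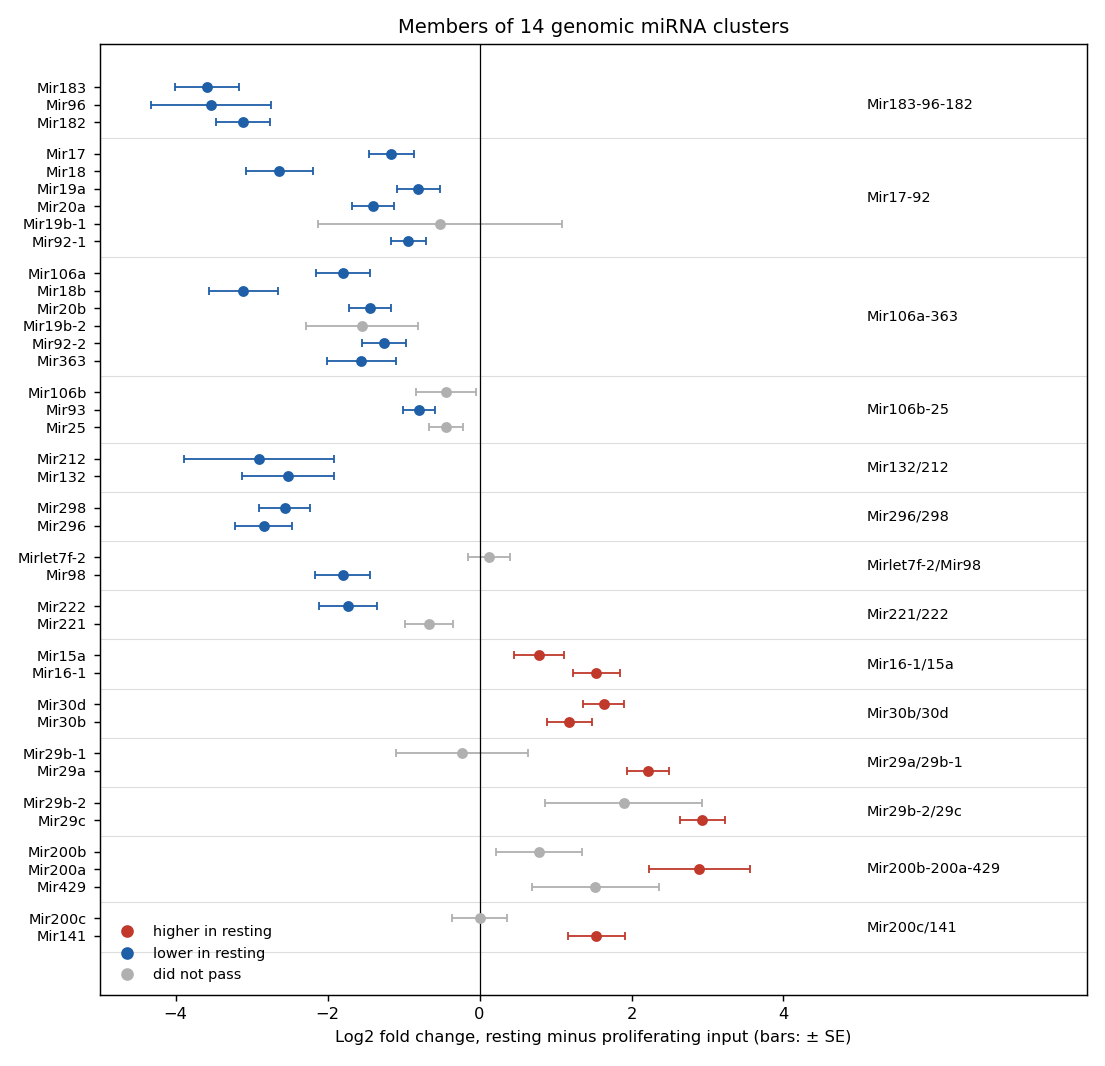
Log2 fold change, resting minus proliferating input, with its SE as a bar, for the members of 14 genomic clusters. Red marks members higher and blue members lower in resting cells, grey those that did not pass. Mir183, Mir96 and Mir182 all lie below 0, and Mir18 and Mir18b lie below the other members of their clusters.

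Grouping by seed gave a summed level per family, which sums the tested features whose RefSeq guide strand shares bases 2 to 8. Of 41 seeds carried by 2 or more tested features, counting both arms, 12 had calls only higher, 15 only lower, 11 none and 3 both. The miR-29 family went from 99452 and 81151 CPM in resting to 17903 and 18020.1 CPM in proliferating inputs, a ratio of 5.03. The seed family of Mir17, Mir20a, Mir20b, Mir93, Mir106a and Mir106b went from 58089 and 58175 CPM to 107073 and 101780.0 CPM, with 5 of 6 members lower in resting cells. Most of that sum is Mir93. The miR-18 family, with 2 of 2 members lower in resting cells, stood at 117.6 and 105.6 CPM against 849 and 796 CPM, a ratio of 7.37. The miR-15/16 family was at 17801 and 19644 CPM in resting and 12172 and 12202 CPM in proliferating inputs, with 3 of 6 members higher and Mir195a, which did not pass, at -1.21.

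The let-7 family, whose members restrain growth genes such as Lin28, Hmga2 and Myc, did not move together. Its summed level was 50233 and 43027 CPM in resting and 71069 and 60909.9 CPM in proliferating inputs, most of it from Mirlet7i. This sum does not include the tested Mirlet7a-2. Mirlet7a-1 had only 7 and 17 counts against 10 and 23, and Mirlet7c-1 had 6 and 15 against 12 and 0. How reads that match several loci were counted is not given, so the sum may not cover the whole family. Mirlet7i was at 34287 and 28704 CPM against 51783 and 43879 CPM (-0.60, SE 0.25, adjusted p = 0.043), a marginal call that was lost with upper-quartile factors (-0.25, adjusted p = 0.40), RLE factors (-0.55, adjusted p = 0.053), DESeq2 (-0.55, adjusted p = 0.098), without features over snoRNA, scaRNA or tRNA genes (-0.52, adjusted p = 0.08), without resting replicate 2 (-0.38, adjusted p = 0.36) and without proliferating replicate 1 (-0.48, adjusted p = 0.25). Of the 10 tested let-7 features, Mirlet7c-2 was higher, Mirlet7i, Mir98 and Mirlet7a-2 were lower and 6 did not pass, with a median of -0.43. The abundant Mirlet7b (0.18), Mirlet7d (-0.50) and Mirlet7g (-0.35) were among those that did not pass. Mirlet7d was called lower with the inputs alone (-0.70), library totals (-0.86, adjusted p = 0.0061) and a minimum count of 30 (-0.59, adjusted p = 0.041). Mirlet7g was called lower with the inputs alone (-0.54) and library totals (-0.70, adjusted p = 0.021). Mirlet7a-2 (-2.07) lost its call with upper-quartile factors (-1.65, adjusted p = 0.099) and without resting replicate 1 (-1.48, adjusted p = 0.19) or proliferating replicate 1 (-1.63), and was -3.20 without resting replicate 2. Mirlet7c-2 (1.98) lost its call without proliferating replicate 1 (1.23, adjusted p = 0.14) with library totals (1.62, adjusted p = 0.054) and with the inputs alone (1.79, adjusted p = 0.054), and was 3.29 without proliferating replicate 2.

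The miR-200 family, which guards epithelial identity through Zeb1 and Zeb2, gave calls in 1 of its 2 seed groups. The 2 members with the seed AACACUG, Mir200a and Mir141, were both higher in resting cells, with a summed level of 1022 and 699.8 CPM against 257 and 249 CPM. None of the 3 members with the seed AAUACUG, Mir200b, Mir200c and Mir429, passed, with a summed level of 271 and 334 CPM against 200.4 and 319 CPM. The split runs across 2 clusters, each of which holds both seeds. Mir200a was at 216 and 192 CPM against 42.3 and 10.5 CPM (2.89, SE 0.67, adjusted p = 0.00045), and was 4.25 without proliferating replicate 1 and 2.12 without proliferating replicate 2. Its neighbour Mir200b was at 44.8 and 66.3 CPM against 39.5 and 24.6 CPM (0.78, SE 0.57). Mir429, in the same cluster, was at 1.52 (SE 0.83, adjusted p = 0.12) on 7 and 18 counts against 3 and 4, a value close to that of the called Mir141. Mir141 was at 806 and 508 CPM against 214 and 238 CPM (1.54, SE 0.37), a call lost without resting replicate 1 (1.14, adjusted p = 0.053), and its neighbour Mir200c was at 207 and 223 CPM against 152.4 and 281 CPM (0.00, SE 0.37). The difference between the 2 seed groups was not tested, and the split is one of calls in the input only.

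**Figure D4:**
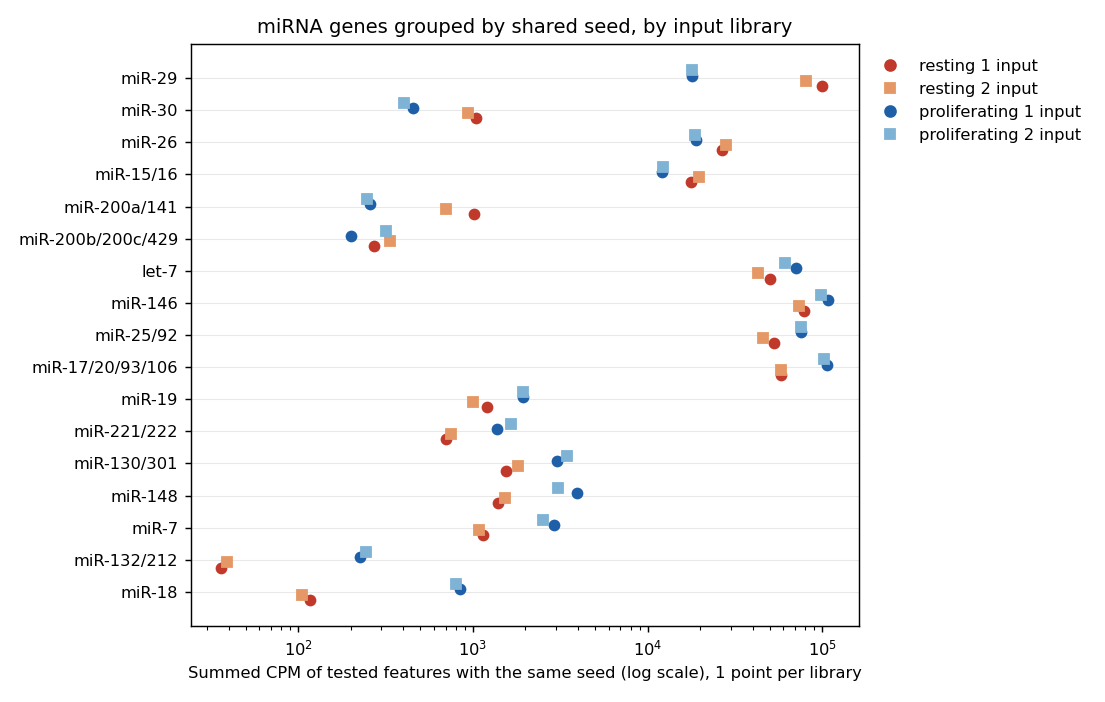
Summed CPM of tested features that share a seed, on a log axis, for 17 families in each of the 4 input libraries. Resting libraries are red and orange, proliferating libraries blue. The miR-29 points lie at 99452 and 81151 CPM in resting and 17903 and 18020.1 CPM in proliferating cells, and the miR-18 points show the widest gap the other way. The miR-30 points hold Mir30a and Mir30c-1 only, since the guide strands of Mir30b and Mir30d are not in the sequence table used.

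Among smaller families, none of the 4 tested members of the miR-23/27/24 clusters passed (Mir27b at 6992 and 7551 CPM against 8492 and 6902 CPM). Of these, Mir27a (0.66, adjusted p = 0.074) was called higher with upper-quartile factors (1.01, adjusted p = 0.0089). Mir27a was also called higher with the inputs alone (0.47) and without features over snoRNA, scaRNA or tRNA genes (0.74). The median of the 4 tested members, 0.13, turned to -0.21 with library totals and to -0.05 with the input libraries alone. The other 2 members, Mir24-1 and Mir24-2, had no count in the inputs. Of 5 tested members of the miR-181 family, known from early lymphocyte development, only Mir181a-2 was called. The miR-181a strand is also encoded by Mir181a-1 (0.43), so its reads cannot be assigned to either locus with certainty. Mir181a-2 had 29 counts against 1, a ratio of 24.3 with an exact 95% counting interval of 4.02 to 991. In the proliferating inputs it did not reach the filter on low counts, and it was tested only through other libraries. The call was lost without proliferating replicate 2 (adjusted p = 0.092), and its log2 values ranged from 3.55 to 7.74. Of 5 tested members of the miR-99/100, miR-125 and miR-10 list, Mir125a and Mir10a (0.74, SE 0.30) were higher and 3 did not pass. The call of Mir10a was lost with library totals (0.39, adjusted p = 0.22), with no filter on low counts (adjusted p = 0.052) and without either resting library or proliferating replicate 2 (0.31, adjusted p = 0.47, in the last case). Of 11 tested members of the list of blood cell miRNAs, 3 were higher, none was lower and 8 did not pass. Another 5 of its 16 members had no count in the inputs, namely Mir142, Mir191, Mir24-1, Mir24-2 and Mir378a. Mir142 and Mir191 overlap a feature on the opposite strand, and of 64 such features only 6 had a count. The strand setting of the counter is not given, so a count of 0 does not show absence. The list of mirtrons and other non-canonical miRNAs had 2 higher, 1 lower and 6 not passed among 9 tested. The lower call, of Mir877 (-1.78), rested on 3 and 23 counts against 54 and 21. It was lost in 9 of 13 alternatives, with values from -3.61 to -1.06. Over all 219 features, 23.3% were higher and 26% lower.

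Some calls rest on 1 state with few or no counts. Of the 108 features that differed, 15 had 3 or fewer counts in 1 state. Mir542 had 67 counts over the resting inputs and 0 over the proliferating inputs, which makes it at least 18.7-fold higher in resting cells against 3 counts over the group. Mir326 had 61 counts against 0, at least 17.0-fold higher. In the other direction Mir6399 had 0 counts in resting and 26 in proliferating inputs, at least 10.4-fold higher in proliferating cells. The bound is at least 3.90-fold for Mir378d, 5.58-fold for Mir7683, 4.38-fold for Mir8112 and 3.99-fold for Mir7661, on 10 to 14 counts each. All of these bounds take the observed counts as exact and include no spread between libraries, so the true fold may be smaller. Mir542 and Mir326 passed in all 13 alternatives. The calls of Mir6399, Mir378d, Mir7683, Mir8112 and Mir7661 were each lost on leaving out any 1 of 3 particular libraries (largest adjusted p from 0.093 for Mir6399 to 0.32 for Mir7661), and that of Mir7661 also with upper-quartile factors. A pair of features passed in all 13 alternatives on few counts in 1 state. Mir455 had 60 and 75 counts in resting and 2 and 2 in proliferating inputs (4.77, SE 0.76), and Mir3971 had 47 and 60 against 1 and 3 (4.42, SE 0.87), with values from 3.71 to 5.42 over the alternatives. Their proliferating counts are at or below the floor of 3 in each library, so the sizes are imprecise. In the state with few or no counts, the features of this paragraph did not reach the filter on low counts. They were therefore tested only through other libraries, and passing the alternatives is no separate support for their calls.

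Some miRNAs typical of other cell types differed between the states, and the counts of called members stand against 49.3% called and 23.3% higher over all features. Both tested members of the myeloid list were higher in resting cells. Mir223 (chrX:96242817-96242926, + strand), the leading miRNA of neutrophils, was at 11582 and 27113 CPM in resting and 1724 and 2536 CPM in proliferating inputs (3.18, SE 0.33, adjusted p = 1.9e-10), so the resting libraries differed by more than 2-fold between themselves and both lay above the proliferating ones. Without resting replicate 2 the value was 2.53. The myeloid list summed to 11968 and 27472 CPM in resting and 1786 and 2574 CPM in proliferating inputs, and Mir139 rose by 2.87 (SE 0.45). The only tested erythroid member, Mir144, was at 115 and 223 CPM against 14.1 and 17.5 CPM (3.42, SE 0.70), and the list summed to 115 and 246 CPM against 14.1 and 21.0 CPM. Of 6 tested epithelial members, Mir200a, Mir141 and Mir203 (2.42, SE 0.39) were higher and 3 did not pass, and the list summed to 2052 and 2215 CPM against 669 and 715 CPM. The endothelial Mir126a, which overlaps Mir126b on the opposite strand, was at 174 and 241 CPM against 488 and 614 CPM (-1.41, SE 0.38), a call lost with upper-quartile factors (-1.03, adjusted p = 0.074) and without proliferating replicate 2 (-1.37, adjusted p = 0.094). The hepatocyte Mir122 had 3 and 4 counts in resting and 22 and 13 in proliferating inputs (-2.54, SE 0.96), and its call was lost with upper-quartile factors, with no filter on low counts and without either resting library or proliferating replicate 1 (largest adjusted p = 0.13). Of the stromal list only Mir10b was tested and did not pass, 9 of 9 muscle members had no count, 7 of 11 neural members and 22 of 27 members of the Dlk1-Dio3 cluster had none, and Mir128-1, the only tested neural member, did not pass (0.62). Cells of these types, and their part in the differences above, were not tested.

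The AGO2 libraries give the same contrast in other libraries of the same states. In the immunoprecipitate (IP), 114 features passed (52.1%), of which 52 (23.7%) were higher and 62 (28.3%) lower in the resting state. Of the 51 features higher in resting input, 33 were also higher in the IP, which is 64.7% of the input calls and 63.5% of the IP calls. Of the 57 lower features, 41 were lower in both, 71.9% and 66.1%. Mir150 (2.77 in the IP), Mir155 (-3.65), Mir34a (-3.20), Mir182 (-3.90) and Mir183 (-3.92) were among them. In the miR-200 family, Mir200b and Mir200c had no input call but were higher in the resting IP (4.03 and 1.74). Mir200a and Mir141 were higher there as well (2.63 and 2.46). The IP minus input difference passed for Mir200b (3.25, adjusted p = 0.0025) and Mir200c (1.74, adjusted p = 0.015) in the edgeR test. Only ENSMUSG00000105167.1, which overlaps Snord43, and Mirlet7i were called in opposite directions. The input call of ENSMUSG00000105167.1 (0.79) was lost with library totals (0.44, adjusted p = 0.095) and without resting replicate 2 or either proliferating library (0.65, adjusted p = 0.12, at the weakest).

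A test of the difference between the 2 contrasts, IP minus input, passed for 38 features (17.4%), 17 with a positive (7.76%) and 21 with a negative difference (9.59%), and for 11 to 46 when any 1 of the 8 libraries was left out. These settings were chosen after seeing the data. Mirlet7b changed by 0.18 in the input and by 4.11 in the IP, a difference of 3.92 (adjusted p = 1.3e-09). Differences of 2.27 for Mirlet7i (adjusted p = 1.2e-05), 2.18 for Mirlet7f-2 (adjusted p = 0.00013) and 1.76 for Mirlet7g (adjusted p = 0.0012) had the same sign. Mir26b had a difference of 1.65 (adjusted p = 0.00028). These 5 passed in every one of 15 alternative settings. In the input they lay between -0.60 (Mirlet7i) and 0.54 (Mir26b), while in the IP all 5 were higher in resting cells, from 1.41 for Mirlet7g to 4.11 for Mirlet7b. In the other direction Mir17 was lower by 1.16 in resting input and by 3.06 in resting IP, a difference of -1.90 (adjusted p = 0.0012) that was lost without resting input replicate 1 or either proliferating input (at the weakest -1.30, adjusted p = 0.11).

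**Figure D5:**
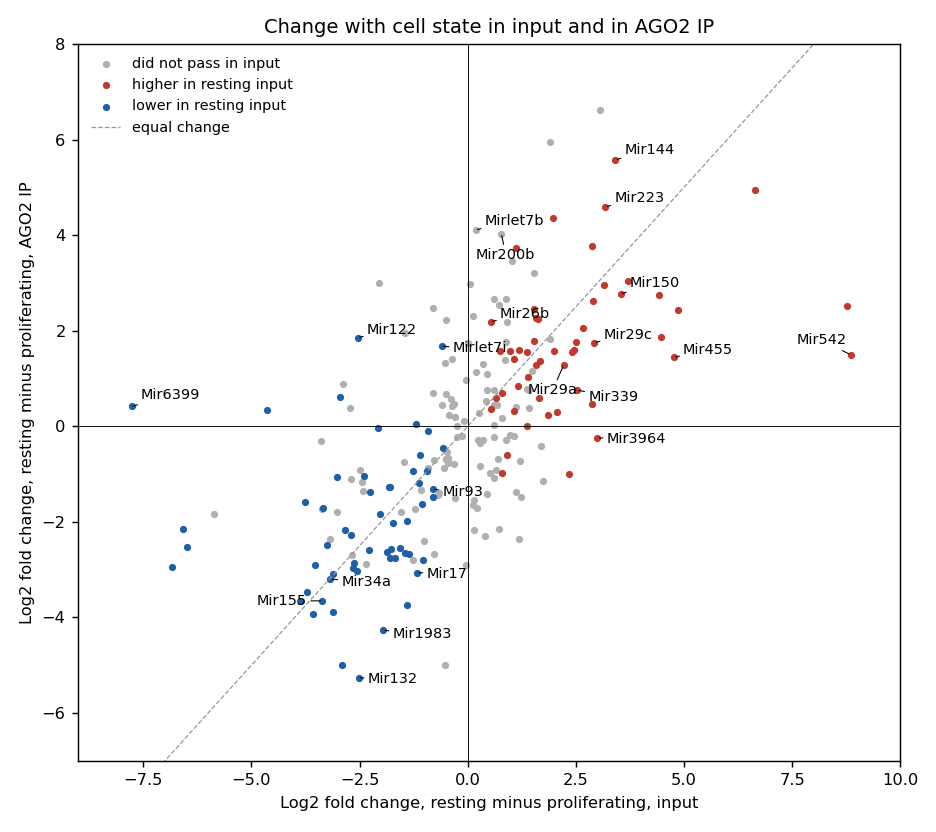
Log2 fold change, resting minus proliferating, in input on the horizontal and in AGO2 IP on the vertical axis for the 219 tested features, coloured by the call in the input. The dashed line marks equal change. Mirlet7b lies at 0.18 in input and 4.11 in IP, while Mir155 lies at -3.37 and -3.65.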

How the data were processed

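The labels describe QIAseq small RNA libraries from input RNA and anti-HA AGO2 IPs, read single-end on an Illumina NextSeq. The submitters' processing notes name STAR 2.7.9a, SAMtools 1.15 and the build mm10. Values are whole-number counts for each miRNA feature, taken by the authors from deduplicated alignments, per the file headers. The sources used here do not give the counter, its strand setting or its treatment of reads with several positions, and 23 tested features have a mature arm encoded at more than 1 locus. Features were named by exact coordinates in RefSeq (GRCm38.p6).

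From the counts, edgeR 4.0.16 (R 4.3.3) fitted 4 groups to all 8 libraries (TMM, filterByExpr with a minimum count of 10, 4 residual degrees of freedom) and tested resting minus proliferating input, 2-sided. SE is the log2 fold change over the root of F. The code was tested on simulated data. A count of 0 was bounded with 3 counts over the group. Alternatives were other scalings, DESeq2 1.42.0, other filters, inputs alone, a replicate block, features over snoRNA, scaRNA or tRNA genes left out, and each input left out. With 1 library left, that state is assumed to vary like the others. Members and gene lists were chosen with earlier results of these data known. Named features are the 15 largest changes each way (mean of at least 100 CPM, states apart), the 10 most abundant per state, the 6 most abundant members of each list, cluster members, features with 0 counts in 1 state, and those over 10000 CPM that did not pass. Mir455, Mir3971, Mir7-1 and called list members beyond the 6 most abundant were named after their values were seen. Replicate numbers were not used to pair samples outside the replicate block. Whether they mark pairs, including pairs of input and IP, is not stated.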

Additional observations from a re-analysis of the deposited data

Results flagged for a closer look

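For 16 features with a mean of at least 1000 CPM over the inputs, the change with cell state differed between the AGO2 IP and the input by the test of the difference itself in edgeR. No explanation was tested. The differences, IP minus input on the log2 scale, were positive for Mirlet7b (3.92), Mirlet7i (2.27), Mirlet7f-2 (2.18), Mir5099 (1.96), Mirlet7g (1.76), Mir26b (1.65), Mir223 (1.40) and Mirlet7d (1.18). They were negative for Mir17 (-1.90), Gm24148 (-1.79), Mir339 (-1.78), ENSMUSG00000105167.1 (-1.77), Mir23a (-1.77), Mir27a (-1.59), Mir20b (-1.21) and Mir29c (-1.18). Of these, 5 passed in all 15 alternative settings, which were chosen after seeing the data: Mirlet7b, Mirlet7i, Mirlet7f-2, Mirlet7g and Mir26b. The others each lost the call in 2 or more settings. Without resting IP replicate 2 the difference was 0.69 for Mir223 and 0.53 for Mir5099, the lowest over the settings. Gm24148 stood at 5394 and 5147 CPM in the resting inputs but at 95.5 and 232 CPM in the resting IPs. Whether it yields a miRNA was not tested.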

How the results depend on the processing

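The 108 features that differed in the input became 98 to 112 under other scalings, filters, DESeq2 and the fit of inputs alone, and 73 to 81 when 1 input library was left out. The count of higher features ranged from 32 to 46 and of lower features from 34 to 44 without 1 library. No feature that differed changed sign. Library totals kept 94 of the 108 and upper-quartile factors 90, with the splits given above. The difference between the IP and input contrasts was the least stable: 38 features passed, 22 with upper-quartile factors, 25 with RLE factors, and between 11 and 46 without 1 library, the lowest without proliferating input replicate 1 (11) and replicate 2 (13), with 25 without resting input replicate 1. Why these counts moved was not tested. The median of the miR-34 and p53-linked list turned to -0.99 with a minimum count of 30 and that of the mirtron list to -0.09 without resting replicate 1. The replicate numbers of the titles were shared between states, but deviations of same-numbered inputs correlated at 0.20 over 219 features and at -0.20 over the 118 with at least 100 CPM. A replicate block gave 100 calls in the input, 99 of them among the 108, and 40 differences between contrasts. Depth limits the rare features, where 3 counts are 7.37 to 10.5 CPM.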
